A study of Mus musculus with 12 samples.

Results

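The genes described here are 36 mouse genes of endoplasmic reticulum (ER) protein folding and of the integrated stress response, out of 37620 counted gene IDs. They were taken by symbol from a given list. Its rule uses no measured value, but the genes were chosen with earlier results of these data known. All 36 were found, and all 36 passed the filter on low counts in each comparison. Their RNA was counted in neural stem cells cultured from E14.5 embryos of the mouse strain C57BL/6J and kept proliferating with 20 ng/ml FGF-2 and 20 ng/ml EGF, as every group was. The 4 groups held 3 libraries each: E12-/- cells (E12KO), wild-type cells from litter mates of the E12-/- animals (E12wt), E47-/- cells (E47KO) and wild-type cells from litter mates of the E47-/- animals (E47wt). Both factors are E proteins of the basic helix-loop-helix family, made as splice forms of a single gene, Tcf3, and the study compared cells lacking either factor with their own wild type.

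Folding and export of secreted and membrane proteins depend on chaperones in the ER lumen. When unfolded proteins build up there, the sensors IRE1 (gene Ern1), PERK (Eif2ak3) and ATF6 activate XBP1, ATF4 and cleaved ATF6, which drive genes for chaperones, protein disposal and amino acid supply. PERK shares its target, the translation factor eIF2alpha, with kinases that sense amino acid shortage, haem and viral RNA, so that ATF4 is the common output of the integrated stress response. Gene counts measure mRNA abundance and do not show XBP1 splicing or eIF2alpha phosphorylation.

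The libraries held 34515297 to 56835783 gene reads, and 3 reads, used as a floor, equalled 0.0528 to 0.0869 counts per 1e6 gene reads (CPM). No label states if replicate libraries stem from different embryos or dishes, so p-values measure the spread between these libraries only. All 10 neural stem cell markers were detected, with summed levels of 7941 to 8457 CPM in E12KO, 7578 to 8441 CPM in E12wt, 8231 to 9004 CPM in E47KO and 8025 to 8766 CPM in E47wt. Over all 12 libraries, 10 neuronal markers summed to 1112 to 1390 CPM. Map2 carried most of that sum, with a mean of 1106 CPM, and the next highest, Elavl4, averaged 43.98 CPM. The sums were 2.47 to 7.13 CPM for 6 endothelial markers and 0.174 to 0.455 CPM for 5 erythroid markers. Tcf3, the targeted gene, was counted at 91.7, 72.9 and 101 CPM in E12KO, 76.4, 82.2 and 75.8 CPM in E12wt, 118, 114 and 108 CPM in E47KO, and 83.7, 75.4 and 97.2 CPM in E47wt. Counts per gene do not separate the splice forms, so these values check neither knockout. E12wt replicate 3 and E47KO replicate 2 stood at opposite ends of the first principal component, which held 31.2% of the variance, at -30.5 and 73.6. All E12 libraries and E47wt replicates 1 and 3 had Xist at 886 to 1509 CPM, while all E47KO libraries and E47wt replicate 2 carried Y-linked transcripts, so sex is unevenly spread over the E47 groups.

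Per kilobase of exon, chaperones and folding enzymes held the top places among the 36 genes, but others of that group stood low. The lowest of them, Dnajb9, had 11.4 CPM per kb on average. Averaged over the 12 libraries, Hspa5, the ER Hsp70 known as BiP, had 426 CPM per kb, and the lectin chaperone Calr had 352 CPM per kb. Pdia3, a disulfide isomerase that works with Calr and Canx, stood at 276 CPM per kb, followed by Hsp90b1, the ER Hsp90, at 263 CPM per kb and Canx at 195 CPM per kb. The serine synthesis genes Phgdh (182 CPM per kb) and Psat1 (174 CPM per kb) and the transcription factor gene Atf4 (144 CPM per kb) came next. At the low end stood Slc7a11, the cystine carrier, at 0.863 CPM per kb, the pseudokinase gene Trib3 at 1.37, the sensor gene Ern1 at 2.15 and the glutathione-degrading enzyme gene Chac1 at 2.75 CPM per kb. The libraries' ranges of Hspa5 (279 to 529 CPM per kb) and Calr (298 to 386 CPM per kb) overlapped, so the order of these neighbours is not fixed beyond the spread.

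The promoters of several chaperone genes share a known element. RefSeq promoter windows of GRCm38.p6, a later build than the one behind the counts, were read from 250 bases before to 50 bases after each start, and 33 of the 36 genes had a window. Hyou1, Manf and Atf6 had none. The ER stress response element (ERSE, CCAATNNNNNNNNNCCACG on either strand), which ATF6 and XBP1 bind together with NF-Y, was found in 8 of these 33 genes (24.2%), against 0.137% of all 27025 genes with a window. They were Hspa5, Hsp90b1, Calr, Canx, Pdia6, Dnajc3, Creld2 and the ligase gene Syvn1. The related ERSE-II (ATTGGNCCACG, either strand) was found in Dnajb11 and Herpud1, against 0.0444% of all genes, and the element UPRE (TGACGTGG, either strand) in none, against 0.714%. The ATF4 element (TGATGNAA, either strand) was found in 6 genes, Atf3, Herpud1, Trib3, Chac1, Asns and Slc7a11, against 4.51% of all genes. UPRE and both forms of ERSE share the letters CCACG, but no matches of different motifs overlapped in these genes, and a match is a description of letters, not of binding. The stretches printed here are those of the first 8 genes, by mean CPM over the 12 libraries, with an ERSE or an ATF4 element before the start. Capitals mark the motif letters, with the ERSE spacer left in lower case, and each stretch reads 5' to 3' on the strand of the gene, so that a motif on the other strand appears as its reverse complement.
Hspa5, chr2:34772015-34772053, plus strand, ERSE: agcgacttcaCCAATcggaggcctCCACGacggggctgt
Hsp90b1, chr10:86705523-86705666, minus strand, ERSE in 2 places: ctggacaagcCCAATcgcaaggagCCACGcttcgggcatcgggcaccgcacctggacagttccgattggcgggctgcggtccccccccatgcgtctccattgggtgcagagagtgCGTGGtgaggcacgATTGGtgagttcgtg
Calr, chr8:84847065-84847103, minus strand, ERSE: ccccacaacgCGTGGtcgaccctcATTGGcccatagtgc
Canx, chr11:50325790-50325828, minus strand, ERSE: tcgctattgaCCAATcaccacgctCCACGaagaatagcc
Pdia6, chr12:17266481-17266519, plus strand, ERSE: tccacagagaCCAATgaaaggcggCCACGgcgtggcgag
Dnajc3, chr14:118937817-118937855, plus strand, ERSE: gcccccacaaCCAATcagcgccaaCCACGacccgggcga
Herpud1, chr8:94386307-94386397, plus strand, ATF4 element and then ERSE-II: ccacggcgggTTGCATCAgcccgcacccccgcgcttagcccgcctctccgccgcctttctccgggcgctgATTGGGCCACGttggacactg
Asns, chr6:7693215-7693242, minus strand, ATF4 element: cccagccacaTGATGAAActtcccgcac

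Across the 12 libraries the genes differed widely in how much they varied. The ratio of the highest to the lowest library was 7.50 for Trib3, 5.18 for Atf3, 5.09 for the mitochondrial folate enzyme gene Mthfd2 and 3.53 for Herpud1, which encodes an ER membrane protein of the disposal pathway. It was 1.18 for Sel1l, the partner of the Syvn1 ligase, and 1.18 for Psat1. The lowest value of 35 of the 36 genes (97.2%) fell in 4 libraries, which held the lowest value of 57.7% of all genes; they belong to 3 of the 4 groups and were noticed after their values were seen. Ern1 was the exception.

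In the first pattern, E12wt replicate 3, E47KO replicate 3 and E47wt replicate 3 were low for part of the 36 genes, among them Herpud1, Atf3, Hspa5 and Xbp1. Herpud1 had 139, 134 and 152 CPM in E12KO, 129, 123 and 53.9 CPM in E12wt, 126, 151 and 43.1 CPM in E47KO, and 125, 132 and 46.8 CPM in E47wt. Atf3, a stress-induced transcription factor gene, had 51.1, 53.8 and 61.9 CPM in E12KO, 42.9, 47.9 and 12.7 CPM in E12wt, 52.3, 29.2 and 12.5 CPM in E47KO, and 48.1, 52.5 and 12 CPM in E47wt. In both genes replicate 3 was the lowest library of E12wt, of E47KO and of E47wt, while replicate 3 of E12KO was the highest of its group. Hspa5 had 1959, 2215 and 2237 CPM in E12KO, 1835, 1914 and 1278 CPM in E12wt, 1788, 2014 and 1224 CPM in E47KO, and 1872, 2091 and 1179 CPM in E47wt. Xbp1, the mRNA that IRE1 splices, had 130, 140 and 127 CPM in E12KO, 139, 127 and 91.1 CPM in E12wt, 122, 127 and 68.5 CPM in E47KO, and 110, 127 and 72.4 CPM in E47wt. These 3 libraries were the 3 lowest of the 12 for 11 of the 36 genes (30.6%), and for 4.36% of all 15277 genes. The 11 were Hspa5, Dnajb9, Sdf2l1, Creld2, Manf, Xbp1, Atf3, Ddit3, Herpud1, Sesn2 and Ppp1r15a. Edem1, another gene that ER stress induces, did not follow. It had 57.1 to 71.6 CPM in the 3 libraries and its highest value of the 12 in E47KO replicate 3. Trib3 had 1.495 to 2.104 CPM and Chac1 1.892 to 2.798 CPM in the 3 libraries. Both had their lowest value in another library, E47KO replicate 2, and were higher in all remaining libraries.

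The summed levels of glial markers also stood apart in these libraries, while the median marker of each list did so less evenly. The summed level of 8 astrocyte markers was 740 CPM in E12wt replicate 3, 935 CPM in E47KO replicate 3 and 787 CPM in E47wt replicate 3, and lay between 1018 and 1459 CPM elsewhere. By group it ran over 1071 to 1356 CPM in E12KO, 740 to 1218 CPM in E12wt, 935 to 1459 CPM in E47KO and 787 to 1236 CPM in E47wt. The sum of 8 oligodendrocyte lineage markers was 1427, 1264 and 1411 CPM in those libraries and lay between 874 and 1208 CPM elsewhere. It ran over 874 to 1106 CPM in E12KO, 967 to 1427 CPM in E12wt, 1026 to 1264 CPM in E47KO and 929 to 1411 CPM in E47wt. Few genes carried these sums: Sparcl1 averaged 611 CPM over the 12 libraries among the astrocyte markers, and Olig1 (667 CPM) and Olig2 (318 CPM) led the oligodendrocyte lineage list. The median of the 7 tested astrocyte markers, as log2 of the level over each gene's mean of the 12 libraries, was -0.75 in E12wt replicate 3, -0.07 in E47KO replicate 3 and -0.43 in E47wt replicate 3, and ran from -0.19 to 0.53 elsewhere. For the 7 tested oligodendrocyte lineage markers it was 0.53 in E12wt replicate 3, -0.54 in E47KO replicate 3 and 0.29 in E47wt replicate 3, and ran from -0.68 to 0.43 elsewhere. By these medians E47KO replicate 3 lay within the range of the other libraries for both lists and had the opposite sign for the oligodendrocyte lineage. E47wt replicate 3 also lay within the range for the oligodendrocyte lineage, so only E12wt replicate 3 stood outside it. The sum of 8 microglia markers was 6.75, 9.06 and 9.50 CPM in those libraries and lay between 2.29 and 4.47 CPM elsewhere, with 7 of the 8 markers under 1 CPM on average. No marker of these lists was at 0 in all libraries, but Mog, Gjb6 and Aif1, among others, stayed under the floor of 3 reads in each library. Cd68, with a mean of 4.61 CPM, carried most of the microglia sum. The part of these cell types in the stress gene levels was not tested, and in bulk RNA fewer cells of a type and less RNA per cell cannot be told apart.

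In the second pattern, E47KO replicate 2 was low for Atf4 and was the lowest library for 5 of the 7 genes of amino acid and one-carbon supply, while Herpud1, Hspa5 and Ddit3 were not low. The exceptions in that group were Phgdh and Slc7a11. Phgdh had 537.7 CPM there against 374.6 to 545.7 CPM elsewhere, and Slc7a11 had 5.74 CPM against 4.63 to 17.3 CPM elsewhere. The values of Psat1 (676 CPM) and Slc3a2 (196.8 CPM) lay close to their next lowest (694.5 and 199.4 CPM). Mthfd2 had 86.3, 83.0 and 91.2 CPM in E12KO, 82.3, 76.7 and 63.5 CPM in E12wt, 94.1, 18.5 and 84.6 CPM in E47KO, and 77.1, 78.7 and 66.3 CPM in E47wt. Asns, asparagine synthetase, had 190, 176 and 176 CPM in E12KO, 181, 170 and 151 CPM in E12wt, 188, 55.3 and 157 CPM in E47KO, and 184, 174 and 123 CPM in E47wt. Atf4 itself had 368, 357 and 393 CPM in E12KO, 343, 333 and 322 CPM in E12wt, 358, 240 and 340 CPM in E47KO, and 342, 342 and 324 CPM in E47wt. In all 3 genes this library was the lowest of the 12 and lay below the range of the others. Trib3 had 0.610 CPM and Chac1 1.58 CPM there, also their lowest values. Ddit3, which encodes the transcription factor CHOP, had its highest value of the 12 there, at 48.4 CPM against 17.5 to 32.5 CPM elsewhere, and Herpud1 (151 CPM) and Hspa5 (2014 CPM) were within the upper part of their ranges.

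That library was the lowest of the 12 for 15 of the 36 genes (41.7%), but also for 29.8% of all genes, and it had the fewest gene reads, 34515297. It was the lowest for 18 of 20 cytosolic aminoacyl-tRNA synthetase genes, which charge tRNAs with amino acids, with a median of -0.76 on the log2 scale relative to their mean over the 12 libraries. In the same way 15 of 23 other ATF4 target genes were lowest there, with a median of -0.73. Other lists were low there too, with smaller medians. It was the lowest library for 18 of 34 genes of ER translocation and other folding enzymes (median -0.22). So it was for 9 of 16 cytosolic heat shock genes (median -0.22) and 5 of 10 mitochondrial chaperones and proteases (median -0.26). By sums, the mitochondrial list had 1420 CPM there against 2114 to 2549 CPM elsewhere. The heat shock list had 7075 CPM against 9578 to 10685 CPM, and the synthetase list 2215 CPM against 3264 to 3855 CPM. The 4 members of ER-associated degradation had a median of 0.14 in that library, and the 14 chaperones and folding enzymes a median of -0.18. Its astrocyte marker sum, 1459 CPM, and its neural stem cell marker sum, 9004 CPM, were the highest of the 12 libraries. The part of depth or cell type in these values was not tested.

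**Figure D1:**
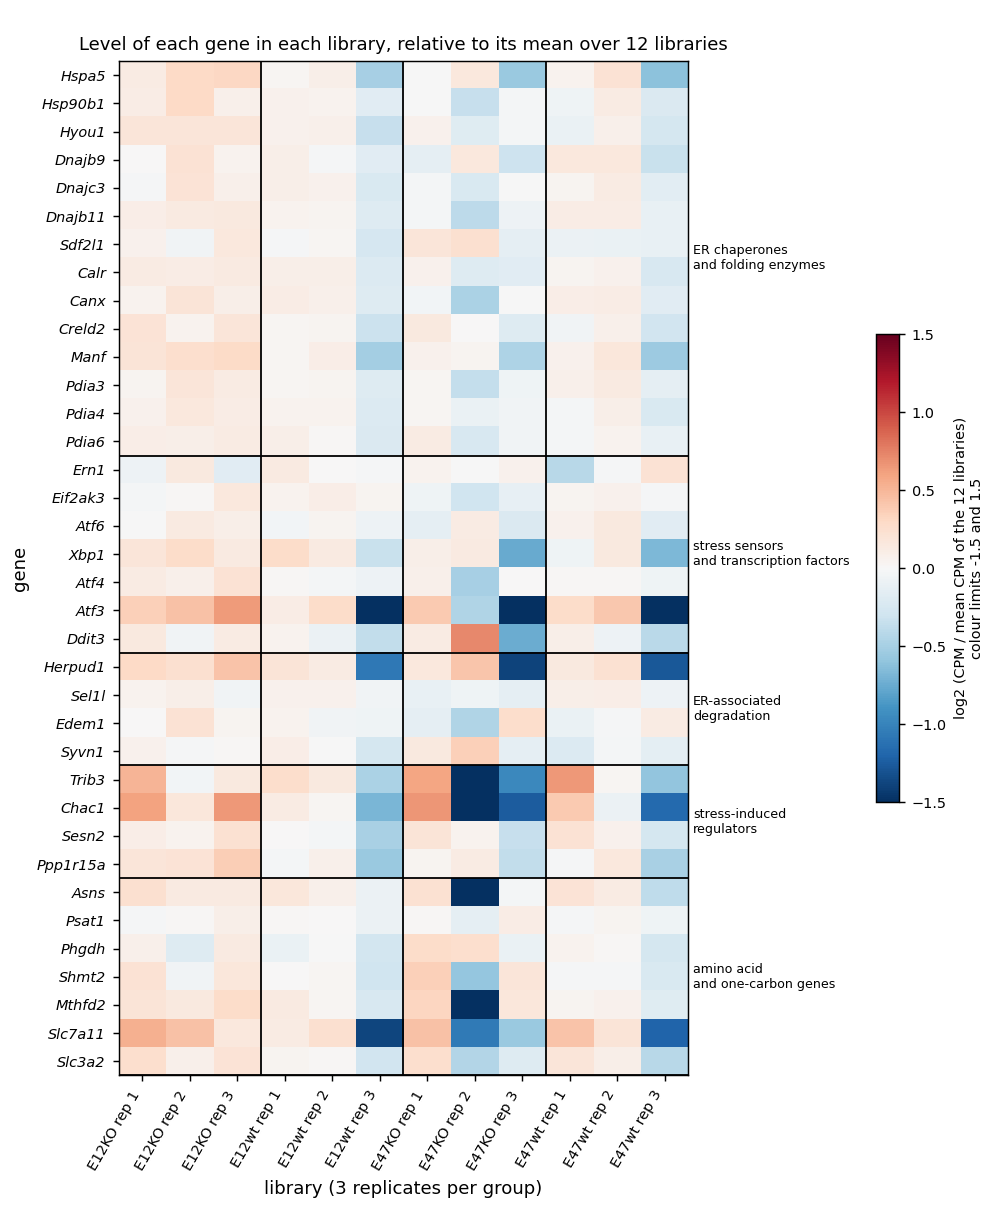
Each row is a gene and each column a library (3 per group, in the order E12KO, E12wt, E47KO, E47wt); colour gives log2 of the library's CPM over the gene's mean CPM of the 12 libraries, with limits at -1.5 and 1.5. Replicate 3 of E12wt, E47KO and E47wt is low for Atf3 and Herpud1, and replicate 2 of E47KO is low for Trib3, Chac1, Asns and Mthfd2.

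**Figure D2:**
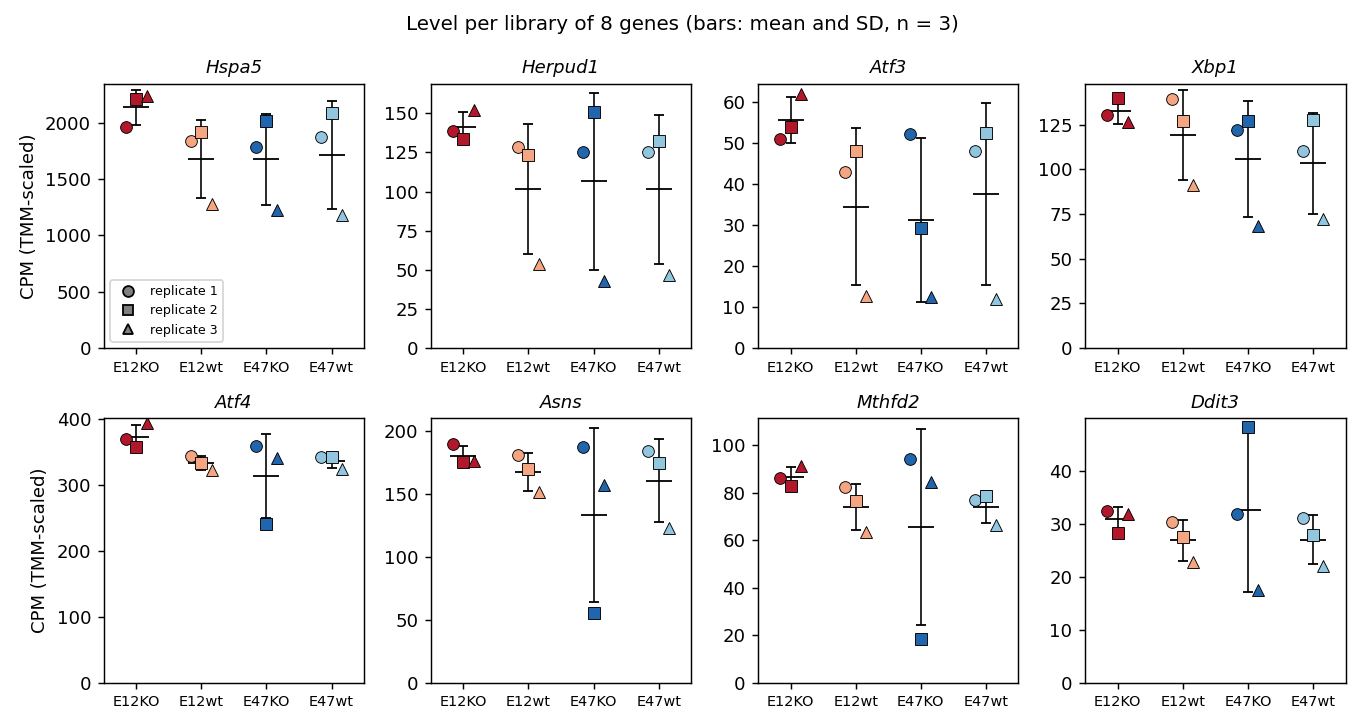
Level in CPM (linear axis from 0) of 8 genes in each of the 12 libraries, by group; marker shapes give the replicate number, and bars the mean and SD of 3 libraries. Herpud1 lies between 43.1 and 53.9 CPM in replicate 3 of E12wt, E47KO and E47wt and between 123 and 152 CPM elsewhere, while Mthfd2 is at 18.5 CPM in replicate 2 of E47KO.

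In E12KO against E12wt, no gene of the 36 passed the test. By edgeR's quasi-likelihood test with Benjamini-Hochberg (BH) adjustment over 14755 genes, 0 of the 36 were called at an adjusted p under 0.05, and 0.0407% of all genes were. At an unadjusted p under 0.05 there were 8 of the 36 (22.2%), all higher in E12KO, against 8.96% of all genes. DESeq2 called 0 and had 9 at an unadjusted p under 0.05. The estimates leaned one way: 34 of 36 log2 fold changes (94.4%) were above 0, against 51.4% of all genes, with a median of 0.16 against 0.00 over all genes. All 3 E12KO libraries lay above all 3 E12wt libraries for 17 of the 36 genes (47.2%), against 6.77% of all genes, and below them for 0, against 6.95%. These shares are descriptions only, since the 36 genes were chosen with earlier results of these data known.

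Among the 14 chaperones and folding enzymes, 14 log2 fold changes were above 0 in E12KO, with a median of 0.15. For 9 of the 14, all E12KO libraries lay above all E12wt libraries, against 6.77% of all genes. Hspa5 had 2137 ± 155 CPM in E12KO and 1676 ± 347 CPM in E12wt (SD, n = 3 each), a log2 fold change of 0.35 ± 0.14 (SE) with an adjusted p of 0.535. Manf, an ER-resident and secreted factor induced by ER stress, had 225, 234 and 240 CPM in E12KO and 201, 210 and 139 CPM in E12wt. The E12KO libraries lay close together and above all of E12wt, and the log2 fold change was 0.34 ± 0.14 with an adjusted p of 0.535. Hyou1, the large Hsp70 of the ER, had 227, 226 and 227 CPM in E12KO and 210, 210 and 157 CPM in E12wt, with a log2 fold change of 0.24 ± 0.11. In both genes E12wt replicate 3 lay far below its group. Hsp90b1 (0.18), Dnajb11 (0.16), the co-chaperone known as ERdj3, Calr (0.13), Creld2 (0.23), and the disulfide isomerase genes Pdia4 (0.14) and Pdia6 (0.14) also had groups that did not overlap. The log2 fold changes of the other 5 lay between 0.11 and 0.16, with overlapping groups: the co-chaperones Dnajb9 and Dnajc3, Sdf2l1, Canx and Pdia3.

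Of the 7 genes for sensors and transcription factors, 5 had log2 fold changes above 0 in E12KO, with a median of 0.15. Atf4 had 373 ± 18.3 CPM in E12KO and 333 ± 10.7 CPM in E12wt (SD, n = 3 each), a log2 fold change of 0.17 ± 0.06 with an adjusted p of 0.524. Its lowest E12KO library, at 357 CPM, lay above its highest E12wt library, at 343 CPM. Atf3 averaged 55.6 ± 5.65 CPM in E12KO and 34.5 ± 19 CPM in E12wt (SD, n = 3 each), and its log2 fold change of 0.69 had an SE of 0.39. The sensor genes were near even. Ern1 was at -0.07 ± 0.11 and Eif2ak3 at -0.01 ± 0.07, and Atf6 was at 0.10 ± 0.07. Xbp1 (0.15 ± 0.14) and Ddit3 (0.20 ± 0.12) overlapped between the groups.

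In ER-associated degradation, which returns misfolded proteins to the cytosol for destruction, 4 of 4 log2 fold changes were above 0 in E12KO, with a median of 0.09. Herpud1 averaged 141 ± 9.49 CPM in E12KO and 102 ± 41.6 CPM in E12wt (SD, n = 3 each), with a log2 fold change of 0.47 ± 0.27 and an adjusted p of 0.594. Its groups did not overlap, and the low E12wt value was that of replicate 3. The mannosidase-like Edem1 (0.11 ± 0.08), Syvn1 (0.07 ± 0.10) and Sel1l (0.01 ± 0.07) overlapped between the groups.

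The 4 stress-induced regulators had the highest median of the role groups in E12KO, 0.34, and 4 of 4 log2 fold changes were above 0. Chac1 had 6.85, 5.05 and 7.08 CPM in E12KO and 4.88, 4.59 and 2.80 CPM in E12wt. No value overlapped, and the log2 fold change was 0.63 ± 0.23 with an adjusted p of 0.523, the lowest of the 36 genes. Ppp1r15a, the GADD34 subunit that directs a phosphatase to eIF2alpha, had 67.5, 68.6 and 77.5 CPM in E12KO and 58.6, 63.1 and 40.5 CPM in E12wt. Its log2 fold change was 0.40 ± 0.15 with an adjusted p of 0.528. For Sesn2, a leucine-sensing inhibitor of mTORC1 signalling, the values were 158, 152 and 172 CPM in E12KO and 147, 144 and 105 CPM in E12wt, with a log2 fold change of 0.28 ± 0.12. Trib3, at 0.21 ± 0.23, overlapped between the groups.

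All 7 genes of amino acid and one-carbon supply had log2 fold changes above 0 in E12KO, with a median of 0.20. Slc3a2, the shared chain of amino acid exchangers, had 317, 281 and 308 CPM in E12KO and 274, 270 and 219 CPM in E12wt. The log2 fold change was 0.25 ± 0.10 with an adjusted p of 0.529, and the groups did not overlap. Mthfd2 averaged 86.8 ± 4.14 CPM in E12KO and 74.2 ± 9.66 CPM in E12wt (SD, n = 3 each), with groups that did not overlap and a log2 fold change of 0.23 ± 0.10. Slc7a11, which pairs with Slc3a2 to import cystine, had 17.3, 16.3 and 13.4 CPM in E12KO and 13.1, 14.1 and 4.63 CPM in E12wt. Its groups overlapped, and its log2 fold change of 0.56 had an SE of 0.34. Shmt2 (0.20 ± 0.11), Phgdh (0.13 ± 0.10), Asns (0.11 ± 0.08) and Psat1 (0.06 ± 0.06) overlapped between the groups too.

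One library carried much of the size of these E12 differences. Without E12wt replicate 3, the median log2 fold change of the 36 genes was 0.07 in place of 0.16, 31 were above 0, and 5 had an unadjusted p under 0.05, against 6.34% of all genes. The E12KO libraries then still lay above both E12wt libraries for 17 genes, against 9.80% of all genes. Xbp1 was at -0.02 without that library. The number of the 36 at an unadjusted p under 0.05 moved both ways with the other settings. It was 0 without E12KO replicate 3 (median 0.16, 3.80% of all genes), 2 without E12KO replicate 1 (median 0.16, 9.87%) and 5 without E12KO replicate 2 (median 0.17, 9.73%). It was 12 without E12wt replicate 1 (median 0.20, 7.05%), 10 without E12wt replicate 2 (median 0.20, 14.4%), 11 with the replicate block (median 0.17, 9.14%) and 0 with all 12 libraries in the fit (median 0.15, 4.595%). In none of the 12 alternative fits was a gene of the 36 called, and the lowest adjusted p among them was 0.219, for Ppp1r15a. Marker levels also differed between these groups: Bgn, Col1a2 and Col1a1 of the 10 mesenchyme and meninges markers were called lower in E12KO. The sum of that list was 9.92 to 11.7 CPM in E12KO and 12.7 to 18.4 CPM in E12wt. Of the 6 tested markers of that list, 2 had a log2 fold change above 0. Foxc1, the most abundant of the list, averaged 8.27 CPM in E12KO and 6.08 CPM in E12wt. With no gene called, 0 of 7 tested oligodendrocyte lineage markers had a log2 fold change above 0 in E12KO (median -0.60), as did 1 of 9 neuronal markers (median -0.38, 4 at an unadjusted p under 0.05) and 5 of 7 astrocyte markers (median 0.35). Their part in the stress gene values was not tested.

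**Figure D3:**
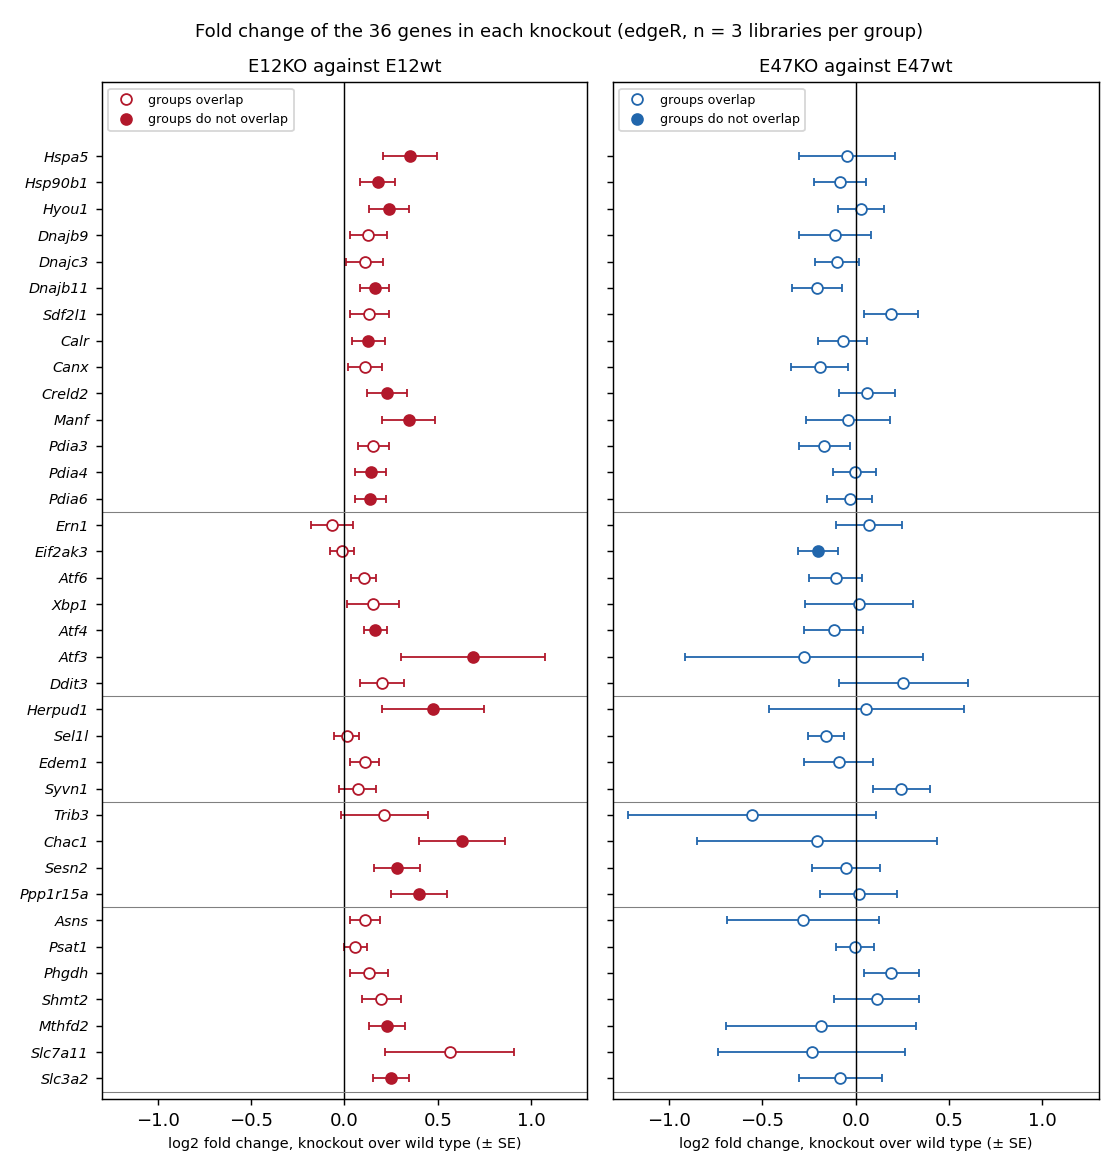
Log2 fold change (x axis, knockout over wild type) with its SE for each of the 36 genes, in the order of the role groups, for E12KO against E12wt (left) and E47KO against E47wt (right). Filled points mark the 17 genes in E12KO and the 1 gene in E47KO whose 3 knockout libraries do not overlap the 3 wild-type libraries, and none passed the test.

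E47KO against E47wt gave no gene of the 36 past the test either. By edgeR with BH adjustment over 14965 genes, 0 of the 36 were called, against 0.0134% of all genes, and the lowest adjusted p was 0.971. At an unadjusted p under 0.05 there were 0 of the 36, against 2.19% of all genes, and DESeq2 gave 0 called and 0 at that p. The log2 fold change was above 0 for 11 of 36 (30.6%), against 49% of all genes, and the median was -0.08 against -0.01 over all genes. The E47KO libraries lay above all E47wt libraries for 0 of the 36, against 4.74% of all genes, and below them for 1 (2.78%), against 3.07%. That gene was Eif2ak3, PERK, with 70.6, 59.6 and 67.6 CPM in E47KO and 75.6, 77.1 and 72.5 CPM in E47wt, and a log2 fold change of -0.20 ± 0.11.

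By role, 3 of 14 chaperones and folding enzymes were above 0 in E47KO (median -0.06), as were 3 of 7 sensors and transcription factors (median -0.11). The counts were 2 of 4 for ER-associated degradation (median -0.02), 1 of 4 for the stress-induced regulators (median -0.13) and 2 of 7 for amino acid and one-carbon genes (median -0.08). Hspa5 averaged 1675 ± 407 CPM in E47KO and 1714 ± 476 CPM in E47wt (SD, n = 3 each), with a log2 fold change of -0.05 ± 0.26. Both groups held 1 low library, replicate 3. Herpud1 averaged 107 ± 56.4 CPM in E47KO and 101 ± 47.5 CPM in E47wt (SD, n = 3 each), with a log2 fold change of 0.06 ± 0.52. Its SE was larger than the difference itself, as it was for Atf3 (-0.28 ± 0.64), Chac1 (-0.21 ± 0.64) and Trib3 (-0.56 ± 0.66). Mthfd2 averaged 65.7 ± 41.2 CPM in E47KO and 74.1 ± 6.75 CPM in E47wt (SD, n = 3 each), with a log2 fold change of -0.19 ± 0.51, and the spread in E47KO came from replicate 2. Sdf2l1, an ER partner of Dnajb11, had 22.9, 23.9 and 18.4 CPM in E47KO and 19, 18.9 and 18.7 CPM in E47wt, with a log2 fold change of 0.19 ± 0.14. Syvn1, at 0.24 ± 0.15, Ddit3, at 0.25 ± 0.35, and Phgdh, at 0.19 ± 0.15, were the other values above 0.15.

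The direction in the E47 line turned on single libraries. Without E47KO replicate 2, 18 of 36 were above 0 with a median of -0.01, and without E47KO replicate 3, 18 were with a median of 0.00. Without E47KO replicate 1, 5 were above 0 with a median of -0.13. Leaving out E47wt replicate 1, 2 or 3 gave 17, 18 and 6 above 0, with medians of -0.02, 0.00 and -0.17. With sex as a covariate 6 were above 0, with a median of -0.23. The lowest adjusted p of any of the 36 in the 13 alternatives was 0.505, shared by Ddit3, Phgdh, Sdf2l1 and Syvn1. Among markers, 5 of 7 astrocyte markers (median 0.47), 4 of 7 oligodendrocyte lineage markers (median 0.06) and 1 of 9 neuronal markers (median -0.15) had log2 fold changes above 0 in E47KO, with 0 called, and their part was not tested.

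**Figure D4:**
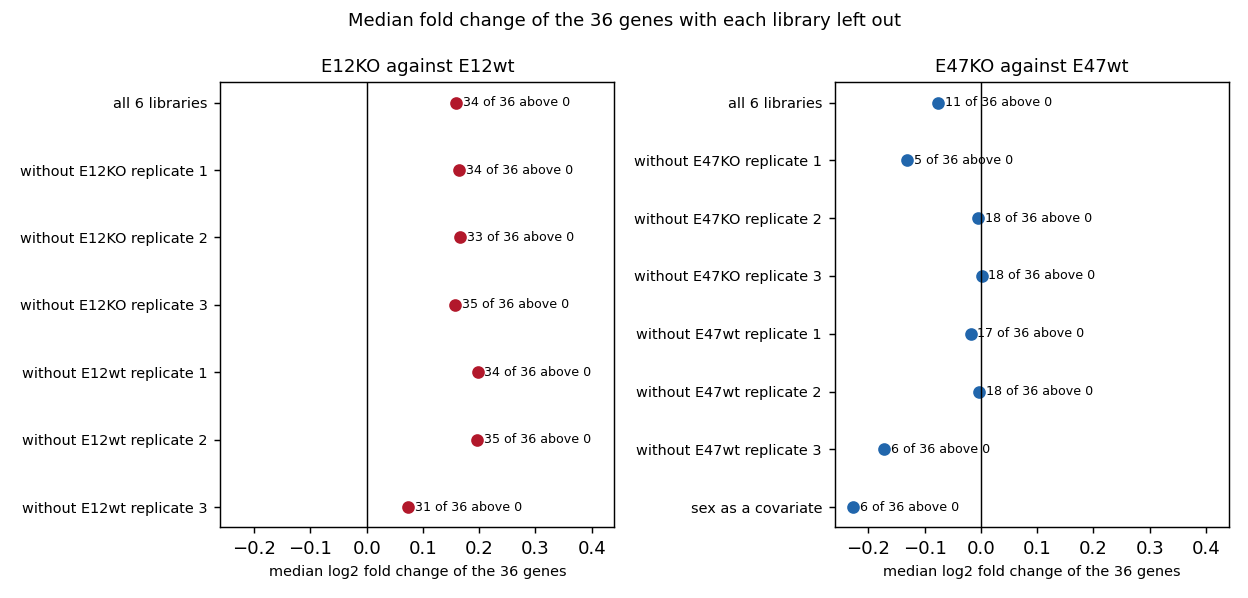
Median log2 fold change of the 36 genes (x axis) with all 6 libraries of a line and with each library left out, for E12KO against E12wt (left) and E47KO against E47wt (right); the number beside each point counts genes above 0. In the E12 line the median lies between 0.07 and 0.20, and in the E47 line between -0.23 (sex as a covariate) and 0.00.

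The difference between the knockout effects was tested in all 12 libraries as E47 minus E12. Sex was unevenly spread over the E47 groups, while Xist was high in all E12 libraries. No sex covariate was in this fit, and the part of sex was not tested. By edgeR 0 of the 36 were called, and 0% of 15277 genes were, and the lowest adjusted p of the 36 was 0.932. At an unadjusted p under 0.05 there was 1 of the 36 (2.78%), Dnajb11, against 3.03% of all genes, and DESeq2 gave 0 called and 1 at that p. Dnajb11 had 133, 136 and 137 CPM in E12KO, 129, 127 and 108 CPM in E12wt, 121, 93.7 and 117 CPM in E47KO, and 134, 133 and 114 CPM in E47wt. Its E12KO libraries lay above those of E12wt, while the E47 groups overlapped, and the difference was -0.37 ± 0.16. The estimate was above 0 for 5 of 36, against 50.7% of all genes, with a median of -0.22. It was below 0 for 13 of 14 chaperones and folding enzymes (median -0.22) and for 4 of 4 stress-induced regulators (median -0.57). Without E12wt replicate 3 and E47KO replicate 2, a choice made after the values were seen, 9 of 36 were above 0 and the median was -0.09.

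The wild types of the 2 lines were also compared, E47wt against E12wt, in which line and litter cannot be told apart. Of these 6 libraries only E47wt replicate 2 carried Y-linked transcripts, and without it 6 of 36 log2 fold changes were above 0, with a median of -0.05. By edgeR 0 of the 36 were called (0% of 14892 genes), and 0 were at an unadjusted p under 0.05, against 3.81% of all genes. DESeq2 gave 0 in both counts. The log2 fold change was above 0 for 21 of 36, against 48.5% of all genes, with a median of 0.01. The groups did not overlap for 0 of the 36 in either direction, against 4.93% of all genes above and 4.51% below. The balance turned on single libraries: without E12wt replicate 3, 2 of 36 were above 0 with a median of -0.11, and without E12wt replicate 1, 33 were with a median of 0.07.

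Other genes, in 8 lists, gave 0 called genes in each comparison. The lists of cytosolic heat shock genes, mitochondrial chaperones and proteases, and NRF2 targets stand for other processes. Over all genes, log2 fold changes were above 0 for 51.4% in E12KO against E12wt and for 49% in E47KO against E47wt. In E12KO against E12wt, 26 of 34 genes of ER translocation and other folding enzymes had log2 fold changes above 0 (median 0.07), as did 12 of 19 other degradation genes (median 0.04) and 14 of 18 other sensors and transcription factors (median 0.10). The counts were 20 of 23 for other ATF4 targets (median 0.11), 17 of 20 for aminoacyl-tRNA synthetases (median 0.06), and 10 of 15 for cytosolic heat shock genes (median 0.02). They were 8 of 10 for mitochondrial chaperones and proteases (median 0.09) and 10 of 12 for targets of NRF2, the oxidative stress factor (median 0.10). In E47KO against E47wt, 12 of 34 genes of ER translocation and folding were above 0 (median -0.06), and 11 of 23 other ATF4 targets (median -0.04). Among the aminoacyl-tRNA synthetases 3 of 20 were (median -0.13). The other counts above 0 in E47KO were 6 of 18 degradation genes, 6 of 18 sensors and transcription factors, 4 of 15 heat shock genes, 4 of 10 mitochondrial genes and 6 of 12 NRF2 targets.

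The most abundant gene of each list shows the scale of these values. Slc7a5, a leucine transporter gene that ATF4 induces, averaged 442 ± 34.6 CPM in E12KO and 364 ± 46.5 CPM in E12wt (SD, n = 3 each), with a log2 fold change of 0.28 ± 0.10 and an adjusted p of 0.523. In the E47 line it averaged 349 ± 132 CPM in E47KO and 384 ± 64.2 CPM in E47wt (SD, n = 3 each), with a log2 fold change of -0.15 ± 0.28. Eprs, a tRNA synthetase gene, had log2 fold changes of 0.09 ± 0.09 in E12KO and -0.25 ± 0.26 in E47KO. Those of the signal sequence receptor gene Ssr3 were 0.07 ± 0.09 in E12KO and -0.08 ± 0.11 in E47KO, and those of the cytosolic chaperone gene Hsp90ab1 were 0.06 ± 0.06 in E12KO and -0.04 ± 0.13 in E47KO. Txnrd1, an NRF2 target, was at 0.21 ± 0.06 in E12KO, with an adjusted p of 0.507, and at 0.03 ± 0.16 in E47KO. The values of Vcp, which extracts proteins from the ER membrane, were 0.10 ± 0.07 in E12KO and -0.06 ± 0.12 in E47KO. Hspd1, the mitochondrial Hsp60, was at 0.13 ± 0.09 in E12KO and -0.22 ± 0.31 in E47KO, and Ppp1r15b, another phosphatase subunit for eIF2alpha, at 0.07 ± 0.07 in E12KO and -0.19 ± 0.13 in E47KO. No difference among these passed the test.

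The authors' deposited table for the E12 line, with 12089 genes and 62 at an adjusted p under 0.05, held 0 of the 36 below that threshold, and 34 of its 36 fold changes were above 0. The authors' deposited table for the E47 line, with 12561 genes and 10 at an adjusted p under 0.05, held 0 of the 36 below it, and 13 of 36 fold changes were above 0.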

How the data were processed

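RNA from 12 libraries was made into stranded mRNA libraries, per the labels' protocols. The submitters' processing notes name STAR 2.5 and the build mm9; the annotation: not given in the sources used here. Raw gene counts were deposited in versions by strand, of which the opposite-strand one (97.1 to 97.2% of strand-assigned gene reads) was used; 6.87 to 9.00% of uniquely placed reads in that version fell on no gene or on several and were left out. The authors also deposited, for each line, normalized signal, log2 fold changes, p-values and a score, the ratio of each fold change to its error.

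The members, pathway lists and markers were chosen with earlier results of these data known. Named genes are all members and, from each list, called genes or the most abundant. Counts were tested in R 4.3.3 with edgeR 4.0.16 (quasi-likelihood F test, low-count filter by group, TMM, prior count 0.125, two-sided p adjusted by Benjamini-Hochberg, called under 0.05), each line in its own 6 libraries and the interaction in all 12; the test was checked on simulated counts. The standard error is the log2 fold change over the root of F. CPM per library is TMM-scaled over the 12 libraries, and exon lengths come from GENCODE M21 (GRCm38). Depth was 34515297 to 56835783 gene reads; the floor of 3 reads covers counting error only. No pair of libraries within a group was alike within sampling noise (chi-square per degree of freedom at least 12.9). Alternatives were DESeq2 1.42.0, its size factors, no filter, both-strand counts, all 12 libraries, a replicate block, sex, and each library left out. In the E47 line, deviations of same-numbered libraries from their group means correlated at 0.10, 0.23 and 0.45, which met the rule for pairing (each above 0.1), although no label states a shared litter or day; the values given are from the fit without the block, and the blocked fit changed no member's call.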

Additional observations from a re-analysis of the deposited data

How the results depend on the processing

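Of the 36 members, 0 were called in any comparison under any alternative run. In E12KO against E12wt, 6 genes of all tested were called, against 76 with DESeq2, 20 without the filter, 2 with all 12 libraries in the fit and 2 to 10 with a library left out; the sign of 31 of 36 members was the same in all 12 alternatives. Xbp1 had a log2 fold change of 0.15 there, with -0.016 to 0.275 over the libraries left out. In E47KO against E47wt, 2 genes were called, against 10 with DESeq2, 1 with sex as a covariate and 0 to 7 with a library left out; 11 members were above 0, against 6 with sex as a covariate and 5 to 18 with a library left out, and 12 of 36 kept their sign in all 13. For the difference between the knockout effects, 0 genes were called, against 1 with DESeq2 and 0 to 1 with a library left out; 5 members were above 0, against 3 to 7 with a library left out and 9 without E12wt replicate 3 and E47KO replicate 2, where Pdia6 was at 0.0081. In E47wt against E12wt, 0 genes were called, against 7 with DESeq2 and 1 with all 12 libraries; 21 members were above 0, against 2 to 33 with a library left out. With the replicate block, 4 genes were called in the E12 line and 2 in the E47 line. In these fits 34 and 11 members were above 0, and no member's call changed. Same-numbered E12 libraries correlated at 0.09, 0.06 and -0.01, which did not meet the rule for pairing (each above 0.1). These few libraries cannot show if the numbers mark a litter or day. The causes were not tested. In E47KO against E47wt the standard errors of the log2 fold changes of Atf3, Herpud1, Trib3 and Chac1 were 0.64, 0.52, 0.66 and 0.64.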
